A study of Mus musculus with 21 samples.

Results

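Intrinsic apoptosis is the route of cell death that runs through the mitochondria, and the genes described here encode its core. They are *Apaf1*, *Casp9*, *Cycs*, *Casp2*, *Bcl2l10*, *Mcl1*, *Bax*, *Bak1* and *Bbc3*, 9 of the 54232 genes in the tables. The list was fixed by name but was chosen by the results of earlier work on these same libraries, so it was chosen by values that include the levels and contrasts given here. For that reason the members' levels and fold changes are given as a description, with the SD or SE and no p-value. The number of members past the threshold of the fit is given beside the share of all genes, and nothing is read from it. Each gene was found by its Ensembl identifier, and all 9 matched 1 symbol each.

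In this pathway BAX and BAK1 form pores in the outer mitochondrial membrane. Anti-apoptotic BCL2 proteins such as MCL1 hold them back, and BH3-only proteins such as BBC3 (PUMA) relieve that restraint. Cytochrome c (*Cycs*) then leaves the mitochondria and binds APAF1, which assembles into the apoptosome and activates the initiator caspase CASP9. CASP2 is another initiator caspase, which is activated on a platform of its own rather than on the apoptosome. Oocytes are known to be lost by apoptosis at several stages, and *Bcl2l10* is known as an oocyte-rich member of the BCL2 family.

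The 21 libraries hold poly(A) RNA, each of 3 fully grown mouse oocytes at the germinal vesicle stage, from females 3 to 4 months old primed with gonadotropin or an inhibin antiserum. All libraries come from mice with at least 1 floxed (fl) allele of *Kif11*, which encodes a spindle kinesin. The control was wt/fl, a wild-type and a floxed allele without Cre (4 libraries). The wt/fl Spo11-Cre oocytes (5 libraries) have the same alleles and a Cre driven by the meiotic *Spo11* promoter from early prophase. The fl/del oocytes (4 libraries) have a floxed allele and a constitutively deleted allele (del) without Cre, and fl/del Spo11-Cre oocytes (4 libraries) add the Cre. A further 2 libraries with Gdf9-Cre and 2 with Zp3-Cre, each Cre driven by the promoter of an oocyte gene, come from oocytes with 2 floxed alleles (fl/fl). No group is free of a floxed allele, and no group has Gdf9-Cre or Zp3-Cre without fl/fl. The methods describe 17 libraries, those of the first 4 groups, so in the fl/fl libraries the driver, the genotype and the set of libraries cannot be told apart. Each mouse gave 1 or 2 libraries, so p-values measure the spread between libraries that are not all from separate animals.

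Total counts per library ranged from 7205010, in a fl/del library, to 18454549. The fl/fl libraries held 7801470 to 10759741 counts, below the 12729969 to 14283549 of wt/fl. *Kif11* itself, counted over all exons, averaged 34.5 CPM in wt/fl and 11.9 in fl/del without Cre, 24.6 and 1.78 in the same genotypes with Spo11-Cre, and 5.0 and 6.11 with Gdf9-Cre and Zp3-Cre. CPM is the count per 1000000 counts of the library. All 12 oocyte markers stood above 20 CPM in every library. Of 16 follicle cell markers, 13 never passed 10 CPM and *Foxl2* was at 0 throughout, while *Esr2*, *Cyp19a1* and *Nr5a2* stood above 20 CPM in every library. The summed level of the 16 lay between 288 and 355 CPM in all groups. Of 3 blood cell markers, *Hbb-bs* and *Hba-a1* were at 0 in every library and *Ptprc* in 19 of 21.

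The proteins act through short conserved stretches, and those of 6 genes are shown because the members they come from span the whole range from undetected to moderate transcript levels. The BH3 core, by which BCL2 proteins bind each other, was searched as a leucine, any 3 residues, a glycine or alanine, and an aspartate, in the reading frame of 1 principal transcript per gene. It was found once each in *Bax*, *Bak1*, *Bbc3* and *Mcl1*, and also once in *Apaf1*, which is no BCL2 gene and is not shown. Capitals mark its 6 codons:
Bax: gagtgtCTCCGGCGAATTGGAGATgaactg
Bak1: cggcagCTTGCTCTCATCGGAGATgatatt
Bbc3: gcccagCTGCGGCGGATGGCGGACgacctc
Mcl1: gagaccCTGCGGCGCGTGGGCGACggcgtg
The same pattern occurs in 23.8% of 21549 coding genes, so a match alone is not particular to the family. *Bcl2l10*, with a reading frame of 191 residues, holds no match, which says only that this pattern is not in its frame. The stretches lie in GRCm38 at chr7:45466000-45466029 on the minus strand (*Bax*), chr17:27022534-27022563 on the minus strand (*Bak1*), chr7:16313767-16313796 on the plus strand (*Bbc3*) and chr3:95659430-95659459 on the plus strand (*Mcl1*), each within 1 coding exon.

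The active site of the initiator caspases was searched as a glutamine, an alanine, the catalytic cysteine, any residue and a glycine, a pattern found in 0.381% of the same coding genes. Capitals mark the codon of the cysteine:
Casp9: ttcatccaggccTGCggtggtgagcagaaa
Casp2: ttcatccaagcaTGTcgtggagatgagaca
Each of these stretches crosses an intron, and they span chr4:141807241-141811546 (*Casp9*) and chr6:42276764-42279784 (*Casp2*) on the plus strand. All sequences were read from the GENCODE M21 transcripts, on the genome build of the study.

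The genes differed far more from each other than between groups. On the TPM scale of the authors, which takes the length of each gene into account, *Bcl2l10* averaged 5554 ± 792 over the 21 libraries (SD), *Cycs* 218 ± 27.3 and *Bax* 21.8 ± 3.46. This order of the first 3 held in 21 of 21 libraries. *Casp2* followed at 2.67 ± 0.785 TPM, *Apaf1* at 1.56 ± 0.570, *Mcl1* at 1.38 ± 0.853 and *Casp9* at 0.777 ± 0.554. *Casp2* lay above *Apaf1* in 20 of 21 libraries, but *Apaf1* lay above *Mcl1* in only 10, so the order of these neighbours is not resolved, and *Mcl1* lay above *Casp9* in 17. In the wt/fl control *Bcl2l10* ranked 14 among 22281 genes with a TPM above 0, *Cycs* 823, *Bax* 5012, *Casp2* 11009, *Apaf1* 11364, *Mcl1* 13116 and *Casp9* 15168. *Bak1* and *Bbc3* had no count in any wt/fl library. The length behind this TPM is that of all annotated exons, 7057 bases for *Casp2*, 9028 for *Apaf1* and 1576 for *Bax*. Their principal transcripts have 3529, 6577 and 867 bases, while for *Bcl2l10* (1220) and *Mcl1* (3418) both lengths are equal. TPM ratios, ranks and order between genes depend on this choice of length.

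**Figure D1:**
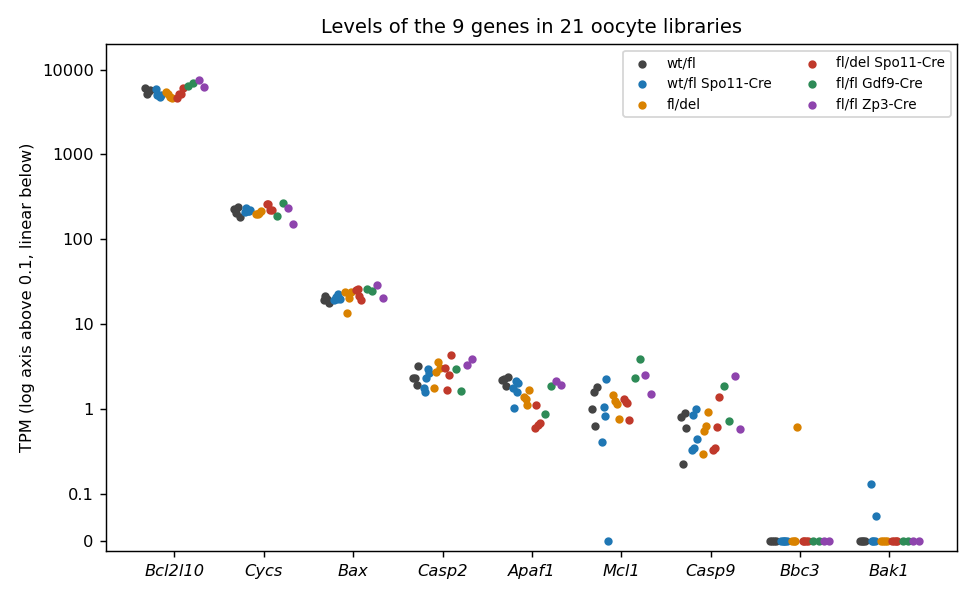
TPM of the 9 genes (log axis above 0.1, linear below) in each of 21 libraries, 1 point per library and 1 colour per group. *Bcl2l10* averages 5554 TPM and *Cycs* 218 over the libraries, while *Bbc3* and *Bak1* are at 0 in all but 1 and 2 libraries.

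APAF1 is the scaffold of the apoptosome, and its transcript was lower in fl/del oocytes than in wt/fl, with and without Cre. *Apaf1* (ENSMUSG00000019979, chr10:90989311-91082770, minus strand) stood at 8.12, 8.17, 7.05 and 8.67 CPM in the 4 wt/fl libraries, a mean of 8.00 ± 0.682 (SD, n = 4). In wt/fl Spo11-Cre it stood at 6.58, 3.91, 8.02, 6.06 and 7.94 CPM, a mean of 6.50 ± 1.68 (SD, n = 5). This mean was 81.2% of that of wt/fl. The ranges overlap, but 3 of the 5 libraries lay below all of wt/fl, 1 of them, at 3.91 CPM, well below the others.

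In fl/del oocytes *Apaf1* stood at 5.18, 4.95, 4.30 and 6.18 CPM, a mean of 5.15 ± 0.778 (SD, n = 4), or 64.4% of the wt/fl mean. In fl/del Spo11-Cre it stood at 2.28, 4.41, 2.46 and 2.58 CPM, a mean of 2.93 ± 0.995 (SD, n = 4), or 36.7% of wt/fl. All 4 libraries of each of these groups lay below all 4 of wt/fl. *Apaf1* was the 1 of 7 members with enough counts that stood apart from wt/fl in this way, in fl/del, where 2.99% of all genes did, and in fl/del Spo11-Cre, where 4.18% did. Against wt/fl Spo11-Cre, the fl/del Spo11-Cre range overlapped, since replicate 2 at 4.41 CPM lay above the lowest wt/fl Spo11-Cre library at 3.91. No member stood apart in that comparison, nor in wt/fl Spo11-Cre against wt/fl, where 1.85% and 4.95% of all genes did.

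In the edgeR fit, the log2 fold change of *Apaf1* against wt/fl was −1.44 (SE 0.33) in fl/del Spo11-Cre, −0.61 (SE 0.33) in fl/del and −0.27 (SE 0.31) in wt/fl Spo11-Cre. It was −1.17 (SE 0.32) in fl/del Spo11-Cre against wt/fl Spo11-Cre. The difference between the effects of Spo11-Cre with and without the del allele was −0.56 (SE 0.45) on the log2 scale. The comparisons against wt/fl share its 4 libraries. CPM is a share of each library, so less *Apaf1* RNA per oocyte and more of the other RNA cannot be told apart.

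At an adjusted p under 0.05 (edgeR's quasi-likelihood test, Benjamini-Hochberg over all genes), 1 of the 7 members, *Apaf1*, passed in fl/del Spo11-Cre against wt/fl, where 0.197% of all genes did. No member passed in wt/fl Spo11-Cre against wt/fl (2.19% of all genes), in fl/del against wt/fl (0.0223%), in fl/del Spo11-Cre against wt/fl Spo11-Cre (0.0357%), in the fl/fl groups against wt/fl (2.79%) or for the interaction between Cre and the del allele (0.103%). With DESeq2, *Apaf1* passed in fl/del Spo11-Cre against wt/fl, as the 1 of 5 members tested, where 166 of 10666 genes did. It also passed when the same libraries were set against wt/fl Spo11-Cre, as the 1 of 7 members, where 14 of 19327 genes did. In these comparisons edgeR called 44 and 8 of 22383 genes, and nothing is read from the calls of either tool. The count of 1 with edgeR against wt/fl fell to 0 in 6 of 8 fits that each left out a library of either group, and also when libraries with the same name prefix were summed. It stayed at 1 without wt/fl replicate 3 and without fl/del Spo11-Cre replicate 2. Averaged over libraries that share a name prefix, which may mark a mouse, the *Apaf1* level was 8.15 and 7.86 CPM in wt/fl, 3.35 and 2.52 in fl/del Spo11-Cre, and 5.07 and 5.24 in fl/del.

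Libraries from fl/fl oocytes, in which both alleles are floxed, did not all share the low level. *Apaf1* stood at 3.16 and 7.18 CPM with Gdf9-Cre and at 8.08 and 6.96 CPM with Zp3-Cre. The Gdf9-Cre libraries spread from the range of fl/del Spo11-Cre up to that of wt/fl. Both Zp3-Cre libraries stood higher than every fl/del library with or without Spo11-Cre, and the share of all genes with such a gap was not computed. *Kif11* stood between 4.27 and 7.95 CPM in the fl/fl libraries. The relation of *Apaf1* to *Kif11* was not tested, and driver, genotype and set of libraries cannot be told apart here. The log2 fold change of *Apaf1* for the mean of both fl/fl groups against wt/fl was −0.45 (SE 0.33).

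**Figure D2:**
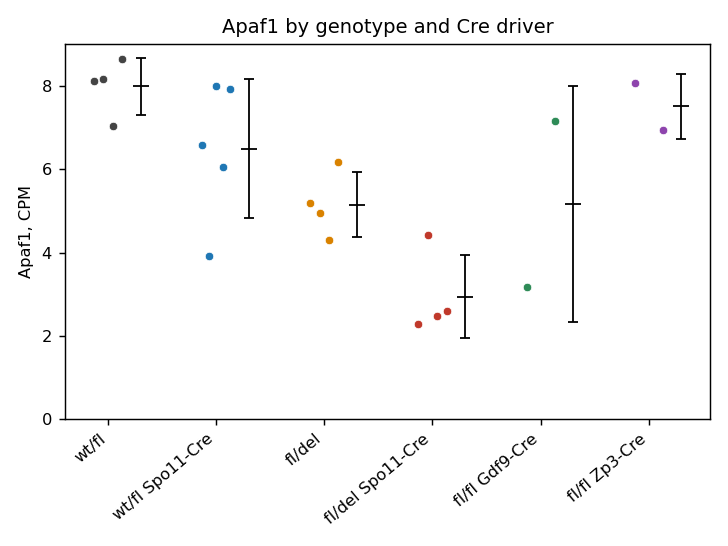
CPM of *Apaf1* in each library by group, with the mean and SD of each group beside the points. The 4 fl/del and 4 fl/del Spo11-Cre libraries lie below the lowest wt/fl library at 7.05 CPM, and the Zp3-Cre libraries stand at 8.08 and 6.96 CPM.

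The other apoptosome genes did not stand apart from wt/fl in fl/del oocytes, with or without Spo11-Cre. *Cycs* (ENSMUSG00000063694, chr6:50562563-50566538, minus strand), the electron carrier that triggers apoptosome assembly, stood at 316, 284, 339 and 249 CPM in wt/fl, a mean of 297 ± 39.0 (SD, n = 4). In fl/del Spo11-Cre it stood at 363, 379, 313 and 310 CPM, a mean of 341 ± 35.0 (SD, n = 4). These ranges overlap. The fl/del libraries held 278 to 302 CPM and those of wt/fl Spo11-Cre 294 to 336 CPM. All 4 fl/del Spo11-Cre libraries thus lay above all of fl/del, a pair of groups for which the share of all genes was not computed. The fl/fl libraries spanned the widest range, from 206 CPM in a Zp3-Cre library to 394 CPM in a Gdf9-Cre library. The log2 fold change in fl/del Spo11-Cre against wt/fl was 0.20 (SE 0.09), and those of the other 4 comparisons lay between −0.10 and 0.10.

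The level of *Cycs* is uncertain, since 24.7% of the stretches of 100 bases in its transcript also occur in transcripts of 3 other genes (*Gm10053*, *Gm10108* and *Gm13772*), and the authors counted uniquely mapped reads only. *Casp9* (ENSMUSG00000028914, chr4:141793612-141815976, plus strand), the caspase that the apoptosome activates, held between 6 and 42 counts per library. In wt/fl it stood at 1.75, 0.471, 1.97 and 1.25 CPM, a mean of 1.36 ± 0.665 (SD, n = 4). The mean was 1.45 CPM in fl/del Spo11-Cre and 1.30 both in fl/del and in wt/fl Spo11-Cre, and all 3 ranges overlap that of wt/fl.

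In the fl/fl libraries *Casp9* stood at 3.90 and 1.63 CPM with Gdf9-Cre and at 5.38 and 1.22 CPM with Zp3-Cre. One library of each driver therefore lay above all 17 libraries of the other groups, whose highest held 2.96 CPM, and its partner lay within their range. How many of all genes did so was not computed. The log2 fold change of the fl/fl mean was 1.04 (SE 0.65), so its error was large for so few counts.

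*Casp2* (ENSMUSG00000029863, chr6:42264985-42282508, plus strand), the initiator caspase outside the apoptosome, stood at 6.72, 6.68, 5.61 and 9.30 CPM in wt/fl. The wt/fl mean was 7.08 ± 1.57 CPM (SD, n = 4). It was 8.51 ± 3.12 CPM with Spo11-Cre and 8.26 ± 2.42 without it in fl/del oocytes (SD, n = 4 each), and 6.74 ± 1.80 in wt/fl Spo11-Cre (SD, n = 5). These ranges all overlap. With Zp3-Cre it stood at 9.74 and 11.1 CPM, just above the wt/fl libraries, and with Gdf9-Cre at 8.36 and 5.0 CPM, within them at one library and below them at the other. How many of all genes stood apart from wt/fl with Zp3-Cre alone was not computed. The log2 fold changes of *Casp2* lay between −0.04 (SE 0.29) and 0.29 (SE 0.28).

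*Bcl2l10* (ENSMUSG00000032191, chr9:75347758-75351632, plus strand), the oocyte-rich BCL2 family member, held 17652 to 47773 counts per library and so had the smallest relative counting error. It stood at 3031, 2524, 2842 and 2791 CPM in wt/fl, a mean of 2797 ± 209 (SD, n = 4). The means of the other groups of the Spo11-Cre background were 2680 ± 302 CPM with Spo11-Cre and 2530 ± 182 without it in fl/del oocytes (SD, n = 4 each), and 2633 ± 216 in wt/fl Spo11-Cre (SD, n = 5). Each of these ranges overlaps that of wt/fl, and the log2 fold changes lay between −0.13 (SE 0.08) and −0.06 (SE 0.07).

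In the fl/fl libraries *Bcl2l10* stood at 3157 and 3675 CPM with Gdf9-Cre and at 3849 and 2978 CPM with Zp3-Cre. Of these 4 libraries, 3 lay above all 17 others, whose highest held 3063 CPM. The share of all genes with such a gap was not computed. The fl/fl mean was 122% of wt/fl, with a log2 fold change of 0.20 (SE 0.09). The share of counts from mitochondrial genes ran from 0.268% to 0.510% with Gdf9-Cre and from 0.315% to 0.331% with Zp3-Cre, against 0.168% to 0.281% elsewhere, so that 3 of 4 lay above all others. The part of this share and of the lower depth in the result was not tested.

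*Mcl1* (ENSMUSG00000038612, chr3:95658788-95663176, plus strand), whose protein restrains BAX and BAK1 and turns over quickly, held 0 to 53 counts per library. It stood at 1.40, 2.2, 0.910 and 2.5 CPM in wt/fl and at 0.586, 1.53, 1.19, 3.22 and 0 CPM in wt/fl Spo11-Cre. The library without a count allows up to 0.165 CPM, taking 3 counts as the limit of a count of 0, which covers counting error only, as reads amplified without molecular identifiers are not independent molecules. In fl/del it ranged from 1.07 to 2.05 CPM and in fl/del Spo11-Cre from 1.06 to 1.85.

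*Mcl1* stood at 3.16 and 5.77 CPM with Gdf9-Cre and at 3.59 and 2.08 CPM with Zp3-Cre, so that 3 of 4 fl/fl libraries lay above all wt/fl libraries. These levels rest on 17 to 53 counts per library, and the log2 fold change of the fl/fl mean was 0.93 (SE 0.64). For *Mcl1*, too, the share of all genes with 3 of 4 fl/fl libraries above wt/fl was not computed. On the TPM scale *Bcl2l10* was 4450 times as abundant as *Mcl1* in wt/fl, from the ratio of their means. By group this ratio ran from 2161 with Gdf9-Cre to 5618 in wt/fl Spo11-Cre, as the *Mcl1* mean rests on few counts.

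*Bax* (ENSMUSG00000003873, chr7:45461697-45466898, minus strand) encodes a pore-forming protein and, unlike its partner *Bak1*, was measurable in every library. It stood at 12.5, 13.8, 12.8 and 11.4 CPM in wt/fl, a mean of 12.6 ± 0.998 (SD, n = 4). In fl/del Spo11-Cre it stood at 16.7, 17.9, 14 and 12.5 CPM, a mean of 15.3 ± 2.44 (SD, n = 4), with 3 libraries above all of wt/fl and 1 within their range. The means were 13.6 ± 0.875 CPM in wt/fl Spo11-Cre (SD, n = 5) and 13.4 ± 3.09 in fl/del (SD, n = 4).

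With Gdf9-Cre *Bax* stood at 16.3 and 16.8 CPM, above all wt/fl libraries, and with Zp3-Cre at 19.2 and 12.9 CPM, where one of the 2 lay within them. For Gdf9-Cre alone the share of all genes that stood apart from wt/fl was not computed. No log2 fold change of *Bax* passed 0.28 (SE 0.21), the value in fl/del Spo11-Cre against wt/fl. *Bax* shares 12.2% of its exonic bases with the predicted gene *Gm45808* on the same strand, and how reads in both genes were counted is not given in the sources used here.

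*Bak1* (ENSMUSG00000057789, chr17:27019810-27029009, minus strand), the other pore-forming gene, held 3 counts in all, 2 in wt/fl Spo11-Cre replicate 1 and 1 in replicate 5. *Bbc3* (ENSMUSG00000002083, chr7:16308393-16318205, plus strand), the BH3-only gene that p53 is known to induce, held 9 counts, all in fl/del replicate 4, a level of 0.535 CPM. In the other libraries both were at 0, which allows up to 0.163 to 0.416 CPM at the depth of each library, so differences between groups were not detectable. Neither passed the filter of a count in at least 3 libraries, and *Bak1* overlaps exons of *Ggnbp1* on the opposite strand. Whether counting used the strand is not given in the sources used here.

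**Figure D3:**
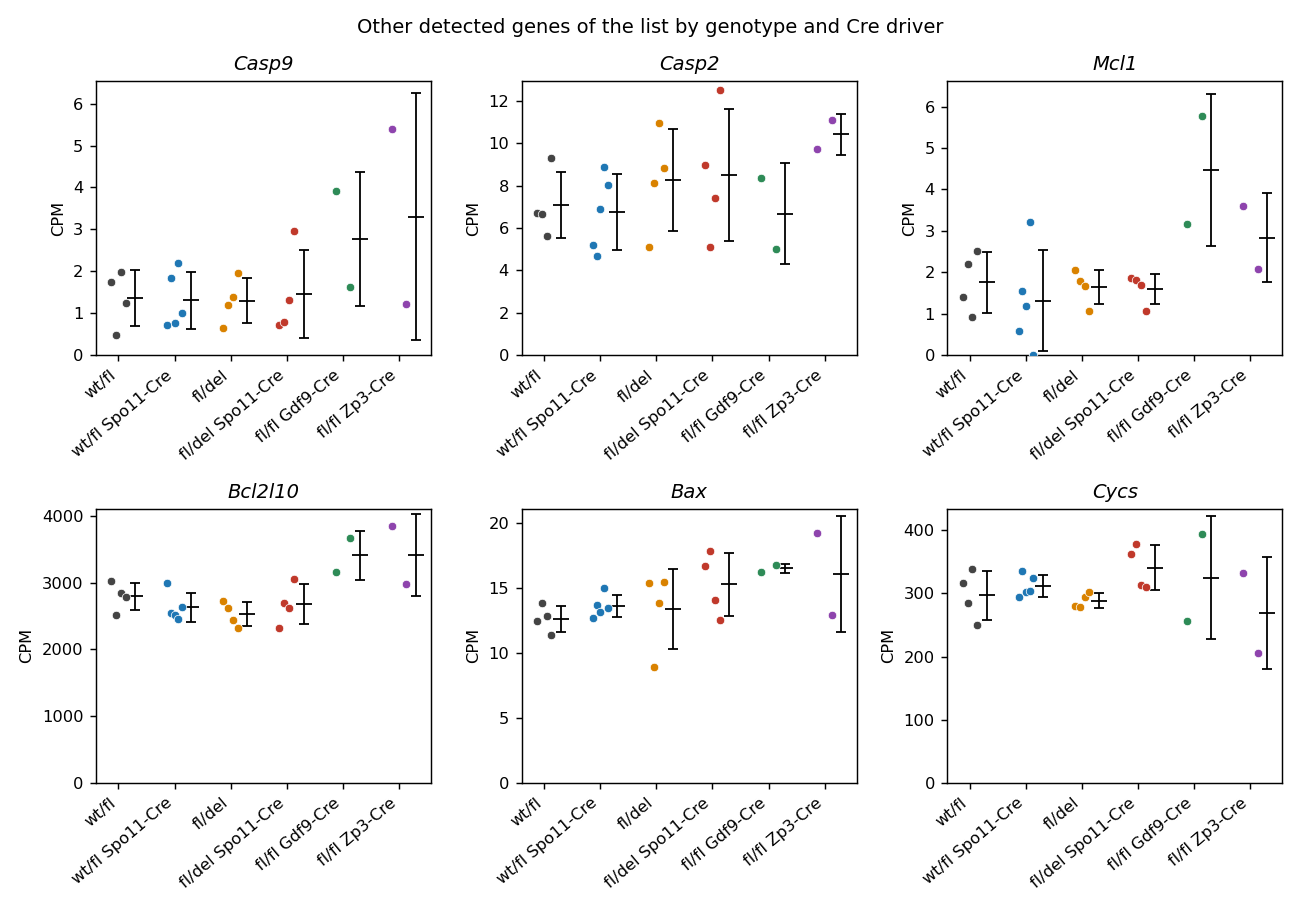
CPM of 6 members in each library by group, with the mean and SD of each group beside the points and every axis from 0. *Bax* spans 8.89 to 17.9 CPM in the 17 libraries without Gdf9-Cre or Zp3-Cre, while *Casp9* and *Mcl1* rest on few counts and reach 5.38 and 5.77 CPM in single fl/fl libraries.

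Taken by comparison, no direction was common to the members. Of the 7 with enough counts, 2 were higher and 5 lower than wt/fl in wt/fl Spo11-Cre, with a median log2 fold change of −0.05 beside 0.03 over all 22383 genes tested. In fl/del, 2 were higher and 5 lower, with a median of −0.07 beside 0.00 over all genes. In fl/del Spo11-Cre against wt/fl, 4 were higher and 3 lower, with a median of 0.06 beside 0.01. In fl/del Spo11-Cre against wt/fl Spo11-Cre, 5 were higher and 2 lower, with a median of 0.12 beside −0.00. For the fl/fl mean, 5 were higher and 2 lower, with a median of 0.20 beside −0.03 over 23225 genes, and no member stood apart from wt/fl in all 4 fl/fl libraries, as 6.14% of all genes did.

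**Figure D4:**
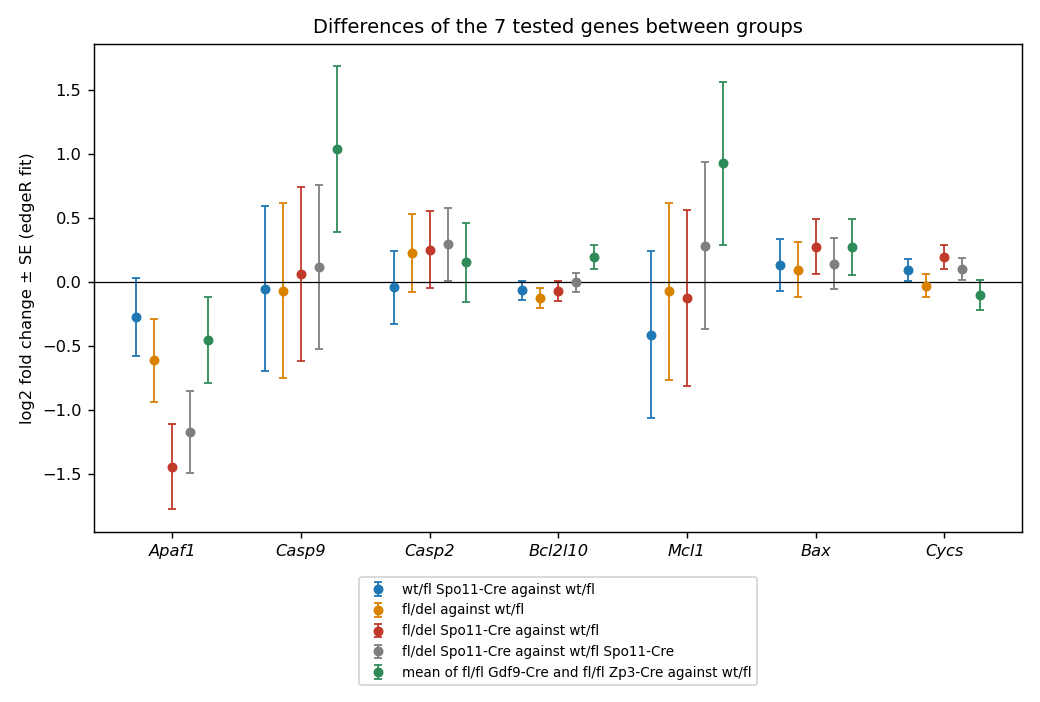
Log2 fold change and SE from the edgeR fit for the 7 members with enough counts, in 5 comparisons. *Apaf1* lies at −1.44 (SE 0.33) in fl/del Spo11-Cre against wt/fl, and the widest bars are those of *Casp9* and *Mcl1*, the members with few counts.

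Over the 21 libraries the 5 members with a mean of at least 5 CPM did not follow each other closely. The Pearson correlation of log2(CPM + 1) lay between −0.45, for *Casp2* and *Cycs*, and 0.45, for *Bax* and *Cycs*, in 10 pairs. The values of all genes come from the same libraries, whose depths differ, so these correlations are descriptions only. Among 9479 genes with such a mean, the patterns most like *Apaf1* were those of *Slc25a13* (r = 0.76) and *Colq* (r = 0.74). Those most like *Casp2* were *Tcte2* (r = 0.83) and *Gm13736* (r = 0.77), and those most like *Bcl2l10* were *Hmgn1* (r = 0.89) and *Dbf4* (r = 0.87). For *Bax* they were *Usp36* (r = 0.82) and *Klhl18* (r = 0.72), and for *Cycs* they were *Map3k6* (r = 0.92) and *Psmb3* (r = 0.88).

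The rest of the pathway was followed through 46 further genes in 6 lists, of which 42 had enough counts to be tested. These lists were also drawn up with earlier results of these data known. In wt/fl Spo11-Cre against wt/fl 1 gene fell and none rose, and the same count was found for the mean of the fl/fl groups, where 2.19% and 2.79% of all genes passed. A single gene of 42 is close to these shares, so the count is not a result about the lists. None passed in fl/del against wt/fl, in fl/del Spo11-Cre against wt/fl, in fl/del Spo11-Cre against wt/fl Spo11-Cre or for the interaction, by edgeR or by DESeq2. At an unadjusted p under 0.05, edgeR counted 7, 5, 3 and 0 of the 42 in these comparisons, where 8.52%, 10.4%, 7.11% and 10.3% of all genes did. The median log2 fold change of the 42 lay between −0.16 and 0.09 in the 5 comparisons, and that of all genes between −0.03 and 0.03.

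The gene that fell in both cases was *Birc3* (ENSMUSG00000032000, chr9:7848699-7873186, minus strand), which encodes the inhibitor of apoptosis protein cIAP2, a ubiquitin ligase. It was by TPM the most abundant of the 46 genes, at 249 ± 42.7 over the 21 libraries (SD). It stood at 654, 635, 578 and 584 CPM in wt/fl, and at 496, 521, 472, 460 and 425 CPM in wt/fl Spo11-Cre. All 5 wt/fl Spo11-Cre libraries lay below all wt/fl libraries, a comparison in which 4.95% of all genes stood apart in either direction. The log2 fold change was −0.34 (SE 0.08, edgeR adjusted p = 0.0116). The lists were drawn up with earlier results known, so the p-values of their genes, here and below, are a description. Nothing is read from the calls of *Birc3*. The adjusted p ranged from 0.0018 to 0.0596 over 18 other settings, and the call was lost without wt/fl replicate 1 (adjusted p = 0.05004) and without wt/fl replicate 2 (adjusted p = 0.0596). These libraries share a name prefix, which may mark a mouse, with a mean of 645 CPM beside 581 for the other wt/fl prefix. The call held when libraries with the same name prefix were summed.

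With Gdf9-Cre *Birc3* stood at 492.8 and 327 CPM and with Zp3-Cre at 399 and 547 CPM, again below all wt/fl libraries. Of all genes, 6.14% stood apart from wt/fl in the fl/fl libraries together. The log2 fold change of the fl/fl mean was −0.56 (SE 0.11, edgeR adjusted p = 7.98e-04), and the adjusted p ranged from 3.2e-06 to 0.0377 over 17 other settings. In fl/del it stood at 608, 528, 481 and 579 CPM and in fl/del Spo11-Cre at 573, 435, 530 and 487 CPM. The latter lay below all wt/fl libraries as well, where 4.18% of all genes stood apart. The log2 fold change in fl/del Spo11-Cre was −0.28 (SE 0.09, edgeR adjusted p = 0.186), which did not pass the test. The interaction was 0.21 (SE 0.12, edgeR adjusted p = 0.565).

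**Figure D5:**
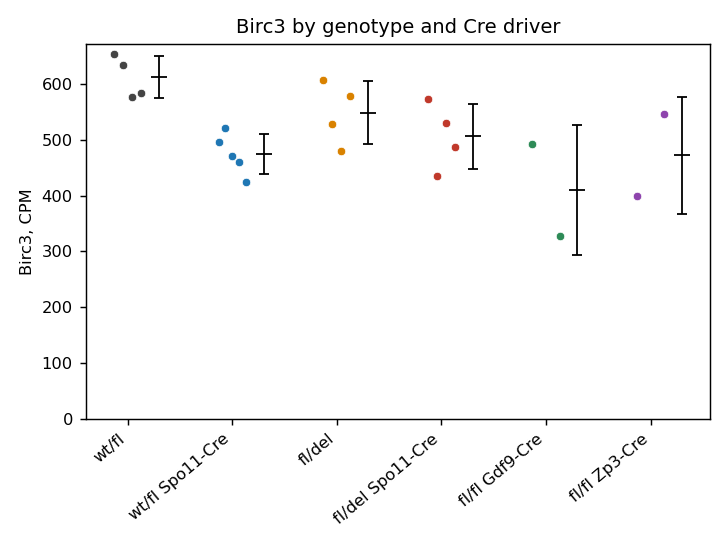
CPM of *Birc3* in each library by group, with the mean and SD of each group beside the points. The wt/fl libraries lie between 578 and 654 CPM, above all 5 wt/fl Spo11-Cre libraries and all 4 fl/fl libraries. In these comparisons 4.95% and 6.14% of all genes stood apart in either direction.

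By role, the transcripts of the pathway were carried by few genes. Among the other anti-apoptotic genes *Bcl2l1* (BCL-XL) led at 33.9 ± 6.60 TPM over the 21 libraries (SD), while *Bcl2* held 0.0650 ± 0.0713. Of the 8 other effector and BH3-only genes, *Bik* led at 35.2 ± 7.54 TPM, followed by *Bad* at 4.98 ± 2.15. Of the BCL2-like genes *Bcl2l12* held 5.54 ± 2.38 TPM and *Bcl2l13* 2.99 ± 0.985. None of these lists had a gene that passed the test in any comparison.

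The caspase of the death receptor route, *Casp8*, held 73.8 ± 10.1 TPM over the 21 libraries (SD), which is 27.6 times the mean of *Casp2* and 94.9 times that of *Casp9*, and its adaptor *Fadd* held 5.22 ± 1.30. The mitochondrial channel gene *Vdac2*, whose protein is known to hold BAK1, stood at 160 ± 22.3 TPM. Of the upstream list, *Usp9x*, which encodes a deubiquitinase known to act on MCL1, held 42.0 ± 6.87 TPM and *Trp53*, encoding p53, 20.6 ± 3.58. *Usp9x* in the fl/fl mean had a log2 fold change of −0.41 (SE 0.12, edgeR adjusted p = 0.0518), just outside the threshold, and its call depended on the setting.

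A pair of genes that lay at 0 in all 4 wt/fl libraries, *Pmaip1* (NOXA) and *Bok*, are named after their values were seen. They were not the only listed genes at 0 there, and the share of all genes at 0 in wt/fl but counted elsewhere was not computed. Their few counts come from libraries of differing depth, so no change between groups is read from them. *Pmaip1*, a BH3-only gene, held 2 to 22 counts in 7 libraries, 3 of them fl/del Spo11-Cre (0.853, 1.25 and 0.360 CPM), 2 fl/del (0.128 and 2.22 CPM) and 2 wt/fl Spo11-Cre (0.153 and 0.258 CPM). *Bok*, a relative of BAX, held 4 to 8 counts in 7 libraries, 2 of fl/del, 2 of fl/del Spo11-Cre and 3 fl/fl libraries, at 0.304 to 1.03 CPM. Neither passed the test in any comparison.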

How the data were processed

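Poly(A) RNA of 3 mouse oocytes per library was measured in 21 libraries. Members and gene lists were chosen with earlier results of these data known. The authors amplified full-length cDNA, ran fastp on the reads, mapped them with HISAT2 2.2.1 (GRCm38) and counted uniquely mapped reads with featureCounts 2.0.3 on the Ensembl annotation. The deposited counts are whole numbers without normalization, for 54232 genes. A symbol was found for 54079. In the table used, *Kif11* is counted over all exons. A second count table, with *Kif11* over exon 22, served as an alternative, and the all-exon counts were 1.95 times its counts for the same genes (median), and how read pairs were counted is not given in the sources used here. The authors also deposited TPM values, used here for levels between genes. Their exon 1 tables were not used.

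CPM was computed on library totals, from 7205010 to 18454549. Models were fitted with edgeR 4.0.16 (R 4.3.3), using TMM scaling and the functions glmQLFit and glmQLFTest. Genes needed at least 1 count in 3 or more libraries, with Benjamini-Hochberg adjusted p under 0.05 as the threshold. One model held the 17 libraries without Gdf9-Cre or Zp3-Cre. The fl/fl groups were tested as their mean in a model of all 21. The code was tested on simulated data. Alternatives were DESeq2 1.42.0, RLE factors, library totals, no filter, filterByExpr, other libraries in the fit, sums by name prefix, a replicate block, leaving out each library, and the exon 22 counts. Levels were also computed on TMM or RLE sizes, as medians and as TPM. The exon overlaps and sequences come from GENCODE M21 (GRCm38). Named genes are the members, *Kif11*, pathway genes past the threshold, the 2 highest of each list by mean TPM, and the 2 genes most like each member with a mean of at least 5 CPM. *Pmaip1* and *Bok* fall outside this rule and were named after their values were seen. Replicates differed by more than sampling noise in every pair within a group.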

Additional observations from a re-analysis of the deposited data

Results flagged for a closer look

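Of 34 sets of libraries of 1 gene and 1 group examined, 2 held a library far from the others, where chance would give about 1 in 20. *Apaf1* in fl/del Spo11-Cre replicate 2 stood at 4.41 CPM, while the nearest of the other 3 libraries stood at 2.58. *Bbc3* in fl/del replicate 4 stood at 0.535 CPM, from 9 counts, while the other 3 libraries held none. With 3 libraries at 0, any count in the fourth would stand apart in this way, so the rate of 1 in 20 does not apply to *Bbc3*. No pathway gene and no member passed the test of the interaction between Spo11-Cre and the del allele.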

How the results depend on the processing

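The log2 fold changes of the 7 members moved by less than the spread between libraries in all 413 values from fits without a library and all 378 values under other settings. That spread is the SD of log2 CPM within groups, and it was wide for *Casp9* (0.987) and *Mcl1* (0.912), so the rule tells little for them. Leaving out 1 library moves a group mean by less than the SD of that group. The values from fits without a library could therefore hardly fail this rule for any member, and no stability is read from them. *Mcl1* in wt/fl Spo11-Cre against wt/fl ran from −1.06 to −0.09. *Casp9* in fl/del Spo11-Cre against wt/fl ran from −0.53 to 0.30 and so changed sign. For *Apaf1* in fl/del Spo11-Cre against wt/fl the values lay between −1.72 and −1.34. Members' levels as percent of wt/fl stayed within 1 SD of the group in 254 of 259 values without a library and in 172 of 175 under other settings. Leaving out a library of the group itself cannot move its mean by 1 SD, so those values could not fail this check. The exceptions were *Bax* with Gdf9-Cre, at 131% and at 124% with TMM, 125% with RLE sizes and 125% with exon 22 counts, and 127% to 135% without single libraries, *Casp2* with Zp3-Cre (138% to 165% without single libraries) and *Cycs* in fl/del (92.1% to 102%).

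Of the other pathway genes, 2 in place of 1 passed in the fl/fl mean with DESeq2, without a filter, with the replicate block and with exon 22 counts, the second being *Usp9x*. Leaving out single libraries gave 1 to 2 there, with *Vdac2* as the second without fl/fl Gdf9-Cre replicate 2, and 0 to 1 in wt/fl Spo11-Cre against wt/fl. With the replicate block 1 gene, *Birc3*, passed in fl/del Spo11-Cre against wt/fl in place of 0 (adjusted p = 0.0481). The replicate numbers do not pair the libraries (median correlation −0.00 over 42 pairs with the same number, 5 over 0.1). The cause of these changes was not tested.

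Counts over all genes moved more. In the order wt/fl Spo11-Cre, fl/del and fl/del Spo11-Cre against wt/fl, fl/del Spo11-Cre against wt/fl Spo11-Cre, fl/fl mean and interaction, the main counts were 491, 5, 44, 8, 647 and 23. They were 931, 25, 166, 14, 1109 and 95 with DESeq2, 742, 80, 185, 39, 787 and 138 without a filter, 446, 2, 29, 4, 612 and 2 with filterByExpr, and 454, 96, 230, 29, 824 and 96 with the block. Exon 22 counts gave 83 in the third and 42 in the last, library totals 40 in the last, name prefix sums 233 in the fifth and 11 in the last. Fits of the compared groups alone gave 238 in the fifth, and a fit of 21 libraries gave 4 in the last. Leaving out single libraries gave 179 to 575, 1 to 18, 30 to 71, 3 to 12, 303 to 1353 and 4 to 60.

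Depth limits the members with few counts. *Casp9* and *Mcl1* rest on at most 53 counts per library, and *Bak1* and *Bbc3* did not pass the filter of the fit.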
